A study of Mus musculus with 38 samples.

Results

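Mouse CD4 T cells of the genotype called rescue were compared with CD4 T cells labelled CD28-/- after 24 h of stimulation in culture. The comparison took the 3 libraries labelled rescue and the 4 libraries labelled CD28-/- at 24 h, 7 of the 38 libraries in the series. Both genotypes were bred without CD28, so the receptor for the anti-CD28 antibody on the plates is, by its label, missing from every one of the 7 cultures. Rescue mice carried in addition Cre recombinase under Cd4 control and, in the Rosa26 locus, a miR-17∼92 transgene behind a CAG promoter and a stop cassette that Cre removes. Since the series has no genotype with Cre only, the transgene, the recombinase and differences between the mouse lines cannot be told apart. Each library came from 1 mouse, whose lymph nodes and spleen were pooled and enriched for naive CD4 T cells with a commercial kit. The cells then spent 24 h in medium with interleukin 2 at 50 U/ml, on a coating of antibodies to CD3 (0.5 µg/ml) and to CD28 (0.2 µg/ml).

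The comparison bears on how much of the transcript pattern of activated cells differs when miR-17∼92 is expressed from a transgene in cells bred without CD28. Beside it stand 24 h cultures of T1792tg cells (the same Cre and transgene with CD28 present, 4 libraries) and of wild-type cells (4 libraries), and unstimulated naive cells of the rescue (3 libraries) and CD28-/- (4 libraries) genotypes. One gene is also given in 24 h cells of T1792del mice, in which the same Cre deletes a floxed miR-17∼92 cluster (4 libraries). PolyA RNA was read and counted per gene. Levels are given as CPM, the count of a gene per 1000000 counts of its library after scaling of library sizes. A gene was called where the adjusted p of edgeR's quasi-likelihood test, with Benjamini-Hochberg adjustment over all tested genes, was below 0.05, and "rose", "fell", "higher" and "lower" of a named gene with a fold change refer to rescue relative to CD28-/- unless another pair is named.

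A naive T cell needs a signal from its antigen receptor and a costimulatory signal, classically through CD28, to make interleukin 2, enter the cell cycle and become an effector cell. The miR-17∼92 cluster is transcribed as a single primary RNA and processed into several mature microRNAs, which pair through their seed bases with matching letters in the 3′ untranslated regions (UTRs) of messenger RNAs and lower their level or translation. In T cells the cluster is known to promote proliferation, survival and the T helper 1 (Th1) fate, and the gene of the pro-apoptotic regulator Bcl2l11 is among its published targets.

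The mature strands of the cluster are shown because their seeds define the target classes used below. They lie on the forward strand of chromosome 14 (RefSeq, GRCm38.p6), from the miR-17-5p strand at chr14:115043684-115043706 to the miR-92a-3p strand at chr14:115044476-115044496. Capitals mark the seed, bases 2 to 8 from the 5′ end. The 6 strands fall into 4 seed families, of which miR-17-5p with miR-20a-5p is the first, miR-18a-5p the second, miR-19a-3p with miR-19b-3p another and miR-92a-3p the last.
mmu-miR-17-5p: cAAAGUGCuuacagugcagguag
mmu-miR-20a-5p: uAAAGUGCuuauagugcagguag
mmu-miR-18a-5p: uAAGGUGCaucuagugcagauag
mmu-miR-19a-3p: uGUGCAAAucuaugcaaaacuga
mmu-miR-19b-3p: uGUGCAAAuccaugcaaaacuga
mmu-miR-92a-3p: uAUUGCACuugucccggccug

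The libraries held 25369804 to 28020721 counts in rescue and 22267060 to 25677763 counts in CD28-/-. The p-values measure differences against the spread between libraries of single mice within groups. That spread was estimated over all 38 libraries of the series, not over these 7 alone. The principal component with the most variance, 63.4%, placed the rescue libraries at -10.7, -25.7 and -20.4 and the CD28-/- libraries between 13 and 15.3. Rescue 1 therefore lay closest to the CD28-/- libraries. The CD4 T cell label was checked on Cd4, which stood at 510, 404 and 420 CPM in rescue and 471, 485, 443 and 505 CPM in CD28-/-, beside Cd8a at 5.82 to 8.26 CPM in rescue and 5.61 to 7.02 CPM in CD28-/-. The B cell marker list summed to 106 to 152 CPM in rescue and 116 to 163 CPM in CD28-/-. The myeloid list summed to 39.8 to 46.1 CPM in rescue and 38.3 to 46.9 CPM in CD28-/-. Of 12 CD4 T cell markers, 2 were called higher and 4 lower (2 without rescue 3 or CD28-/- 4), without exceeding 0.79 or falling below -0.36 on the log2 scale. Red cell and platelet markers summed to 4.13 to 8.13 CPM in rescue and 2.85 to 9.96 CPM in CD28-/-, with no member called. Mpeg1, a macrophage perforin, was called higher (log2 fold change 1.4), with at most 6.07 CPM in rescue and 2.04 CPM in CD28-/-, and was not called without rescue 3 (adjusted p = 0.053). Itgam, an integrin chain of myeloid cells, was the 1 member called lower (log2 fold change -0.80, adjusted p = 0.05), at 0.312 to 0.976 CPM in rescue and 0.603 to 1.72 CPM in CD28-/-, and the median of the 18 tested myeloid markers was -0.33. No member was called lower without rescue 2, rescue 3, CD28-/- 1 or CD28-/- 2. The list of CD8, NK and gamma-delta markers summed to 105 to 127 CPM in rescue and 77.7 to 83.9 CPM in CD28-/-, most of it Xcl1, a chemokine that activated CD4 T cells also make. All 7 libraries had Xist and none had Ddx3y above the limits of the sex check. In bulk RNA, fewer cells of a type and less RNA per cell cannot be told apart.

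At 24 h the engineered loci gave only a partial check of the labels. Cd28 stood at 481, 404 and 435 CPM in rescue and 527, 523, 598 and 506 CPM in CD28-/-, against a mean of 342 CPM in wild-type cells at 24 h. The counts cover the whole gene and the labels do not say which part was deleted, so Cd28 transcripts in every library neither check nor contradict the label in themselves, and CD28-/- is used here as the name of the label. Mir17hg, the host transcript of the cluster, read 34.9, 29.2 and 26.6 CPM in rescue and 32.8, 29.4, 26.1 and 25.9 CPM in CD28-/-. These libraries overlapped, with a log2 fold change of 0.08 ± 0.14 (SE; adjusted p = 0.75).

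Among the gene entries for the hairpins themselves, which in polyA libraries can catch only precursor RNA, Mir17 and Mir18 were higher in rescue. Mir17 had 0.542, 0.617 and 0.555 CPM in rescue, 47 reads in all, and 0.167, 0.216, 0.121 and 0.151 CPM in CD28-/-, 16 reads in all. Its log2 fold change was 1.78 ± 0.45 (adjusted p = 0.0051). Mir18 had 0.759, 0.771 and 0.763 CPM in rescue and 0.335, 0.173, 0.281 and 0.226 CPM in CD28-/-, a log2 fold change of 1.57 ± 0.40 (adjusted p = 0.0048). Neither pair of groups overlapped, although the reads were few. Mir20a did not pass the test (log2 fold change 0.82, adjusted p = 0.35). Mir19a was too low to be tested, with means of 0.133 CPM in rescue and 0.122 CPM in CD28-/-, and Mir19b-1 and Mir92-1 were not analysed here. The levels were further apart in naive cells. There Mir17 averaged 6.87 CPM in rescue and 0.336 CPM in CD28-/-, Mir18 6.48 and 0.349 CPM, and Mir20a 2.84 and 0.306 CPM. Mir19a stayed low in naive cells (0.39 and 0.257 CPM), and Mir17hg averaged 97.1 and 66.7 CPM. These entries can share reads with Mir17hg, which spans them, and the mature microRNAs were not measured.

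The fold change largest in size among the genes named by rule was that of Gh, which encodes growth hormone. Gh had 6.76, 3.55 and 5.45 CPM in rescue and 0.0418, 0.129, 0 and 0 CPM in CD28-/-, a fitted log2 fold change of 6.84 ± 0.55 (adjusted p = 5.3e-11) that rests on the few reads of the CD28-/- libraries. Gh also averaged 3.43 CPM in T1792tg cells and 4.07 CPM in the 24 h cells of T1792del mice, against 0.0423 CPM in wild type. All 3 genotypes with Gh reads above 1 CPM carry the Cd4-Cre construct, and the source of the reads was not tested.

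Of 13650 tested genes, 2510 were called (18.4%), 1300 higher in rescue (9.52%) and 1210 lower (8.86%). The median change of the called genes was 0.445 on the log2 scale in the genes that rose and -0.445 in the genes that fell, and the median of all genes was 0.01. More genes passed large thresholds upward than downward: 236 rose and 116 fell by over 2-fold, and 64 rose and 20 fell by over 4-fold. The 3 rescue libraries lay wholly above the 4 CD28-/- libraries in 1262 of the genes that rose, and wholly below them in 1122 of those that fell, where 19.3% and 16.1% of all tested genes showed such separation. Among the genes that rose, the median gene stood 0.30 above the CD28-/- mean on the log2 scale in rescue 1, 0.45 above it in rescue 2 and 0.42 above it in rescue 3. Without rescue 1 the count of called genes was 2561, and without rescue 2 it was 1300 and without rescue 3 it was 1595, so the number of calls depended on those 2 libraries.

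**Figure D1:**
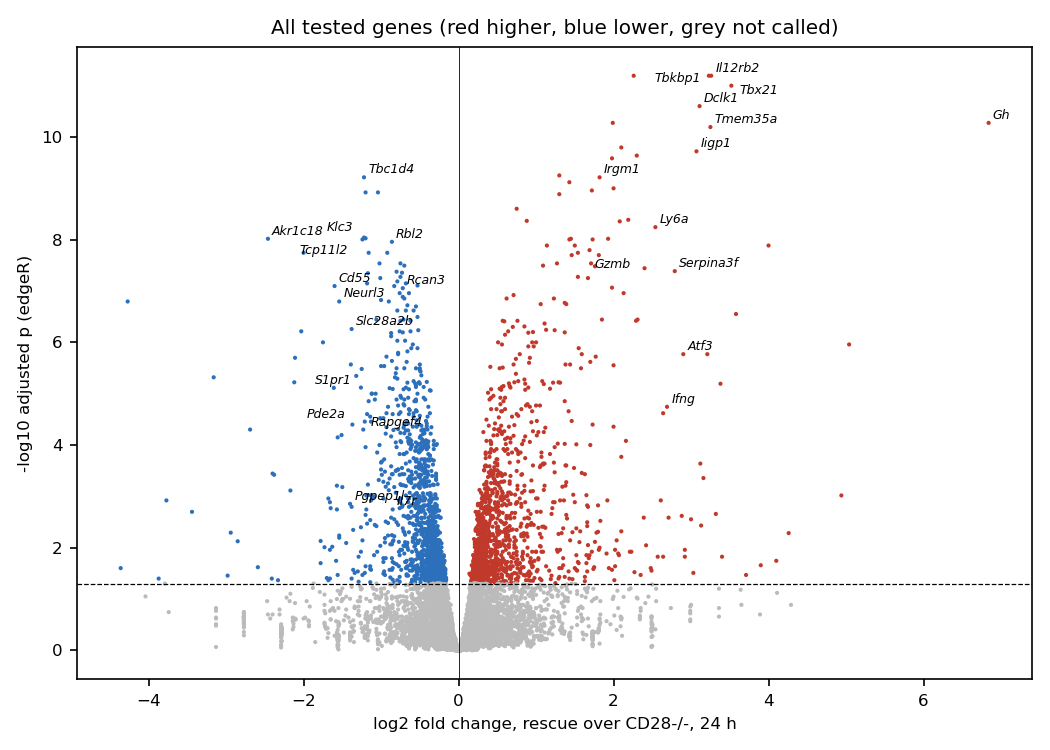
Each point is 1 of the 13650 tested genes, with the log2 fold change of rescue over CD28-/- at 24 h on the x axis and the negative log10 of the adjusted p on the y axis; the dashed line is the threshold of 0.05. Genes called higher (1300, red) reach larger fold changes than genes called lower (1210, blue), and Tbx21, Il12rb2 and Tbkbp1 combine a large change with a small p.

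The published targets of miR-17∼92 moved in both directions. Of 25 tested, 8 fell and 5 rose, and the list's median log2 fold change was -0.05 beside 0.01 over all genes. The list summed to 1670, 1590 and 1610 CPM in rescue and 1820, 1790, 1870 and 1740 CPM in CD28-/-, so that every rescue library lay below every CD28-/- library. Rbl2 (chr8:91070057-91123844, GRCm38.p6), which encodes the pocket protein p130 that holds cells out of the cycle with E2F4, fell most in size. Rbl2 read 37.5, 29.9 and 33.3 CPM in rescue and 63.7, 57.9, 63.9 and 58 CPM in CD28-/-. The groups were well apart, and the log2 fold change was -0.86 ± 0.09 (adjusted p = 1.1e-08).

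Rcan3, an inhibitor of the phosphatase calcineurin, read 42.1, 34.6 and 33.7 CPM in rescue and 61.5, 62, 62.3 and 57.4 CPM in CD28-/- (log2 fold change -0.72 ± 0.08, adjusted p = 8.8e-08). Tgfbr2, a receptor subunit for the growth inhibitor TGF-beta, read 73.8, 65.2 and 68.4 CPM in rescue and 103, 101, 95.1 and 105 CPM in CD28-/- (-0.55 ± 0.09, adjusted p = 1.4e-05). Bcl2l11, which encodes the pro-apoptotic protein BIM, read 163, 143 and 134 CPM in rescue and 197, 213, 202 and 182 CPM in CD28-/- (-0.44 ± 0.10, adjusted p = 0.0026). For each of these genes every rescue library lay below every CD28-/- library. The transcriptional repressor gene Zbtb4 fell by 0.75 on the log2 scale, Hif1a, the oxygen-sensing factor, by 0.43, the autophagy kinase gene Ulk1 by 0.33 and the deubiquitinase gene Cyld by 0.27.

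The 5 listed targets that rose were Socs1, Socs3, Cdkn1a, E2f3 and Stat3. Socs1, a feedback inhibitor of cytokine receptors, read 22.4, 36.2 and 29.9 CPM in rescue and 13.4, 12.2, 13.5 and 11.6 CPM in CD28-/-, a log2 fold change of 1.22 ± 0.18 (adjusted p = 6.1e-06). Socs3 of the same family rose by 0.75, the cyclin-dependent kinase inhibitor gene Cdkn1a by 0.67, the cell cycle factor E2f3 by 0.50 and the cytokine signal transducer Stat3 by 0.46. Without rescue 3 the count of risen targets was 3. Phlpp2, a phosphatase of AKT, had a log2 fold change of 0.00 ± 0.13 and did not pass the test (adjusted p = 1).

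A seed match, 7 letters in the 3′ UTR complementary to a seed, was present in 24 of the 25 listed targets, beside 34.5% of all genes with a UTR. The list was drawn up from published targets of the cluster, so a high share of matches can be part of what defines it. The 2 shares were also not matched for UTR length. All 8 targets that fell and all 5 that rose had a match, so its presence did not separate the directions. One stretch of 30 bases is shown for 7 of the fallen targets on the transcript strand so that the letters counted as a match can be seen, and other matches in the same UTRs are not printed. The match is in capitals, and the UTRs were taken from GENCODE M21 on GRCm38. The stretches of Rcan3, Tgfbr2, Bcl2l11, Cyld and Ulk1 show the letters that pair with the miR-17 and miR-20a seed, and those of Zbtb4 and Hif1a a match for miR-18a. Zbtb4 also had 3 matches for miR-17 and miR-20a and 2 for miR-19 elsewhere in its UTR, and Hif1a had 1 for miR-17 and miR-20a. A match is a description of the letters, not evidence of binding.
Rcan3 chr4:135416233-135416262, reverse strand: attctgaacagtattctcaatgGCACTTTa
Tgfbr2 chr9:116090073-116090102, reverse strand: tttacaacagccaataacgtttGCACTTTa
Bcl2l11 chr2:128160430-128160459, forward strand: tgtgccagtctccccgactggaGCACTTTa
Cyld chr8:88748465-88748494, forward strand: aatattgctgttatttttaaagGCACTTTa
Ulk1 chr5:110785679-110785708, reverse strand: cccagctttgtaagtcaccggaGCACTTTa
Zbtb4 chr11:69780506-69780535, forward strand: caccaactttgcctccaaaataGCACCTTa
Hif1a chr12:73945985-73946014, forward strand: ttgctgtagtgtcatttaaaatGCACCTTt

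Across all 12678 tested genes with a 3′ UTR, 10% were called higher and 9.14% lower. Among the 8308 genes without a match to any of the 4 seeds, 10.6% were called higher and 7.66% lower, with a median log2 fold change of 0.03. Among the 2881 genes with 1 match, 9.51% were called higher and 11.5% lower. Among the 510 genes with 3 or more matches, 5.88% were called higher and 13.3% lower, with a median of -0.08. The share called lower thus grew with the number of matches, and so did UTR length, with a median of 906 bases at 0 matches and 3952 bases at 3 or more. The median of genes with a match differed by -0.039 on the log2 scale from that of genes without one, and by -0.058, -0.056 and -0.045 within the short, middle and long classes of UTR length.

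By family, the 1861 genes with a match for miR-17 and miR-20a had 6.88% called higher and 13.8% lower. The 1292 genes with a miR-18a match had 9.75% called higher and 11.1% lower, the 1695 with a miR-19 match 9.26% higher and 11.9% lower, and the 976 with a miR-92a match 8.2% higher and 11.2% lower. The classes share genes and were not tested against each other. Between T1792tg and wild-type cells at 24 h, the genes with 3 or more matches had a median log2 fold change of 0.02 and the genes without a match -0.02. Between naive rescue and naive CD28-/- cells the same medians were -0.11 and 0.02.

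Genes of the Th1 and effector program were mostly higher in rescue. Of 20 tested, 13 rose and 1 fell, with a median log2 fold change of 1.15, the highest of the 31 lists. Tbx21 (chr11:97098007-97115331, GRCm38.p6) encodes T-bet, the transcription factor that directs Th1 differentiation. It read 50.2, 98.9 and 107 CPM in rescue and 6.82, 8.67, 9.2 and 5.13 CPM in CD28-/-. The lowest rescue library stood well above the highest CD28-/- library, and the log2 fold change was 3.52 ± 0.26 (adjusted p = 1e-11).

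Il12rb2, the subunit that makes T cells responsive to interleukin 12, read 16.6, 28.8 and 30 CPM in rescue and 2.34, 3.06, 3.09 and 2 CPM in CD28-/- (log2 fold change 3.26 ± 0.23, adjusted p = 6.4e-12). Ifng (chr10:118441046-118445894), the signature Th1 cytokine, read 6.29, 15.5 and 12.6 CPM in rescue and 1.59, 1.81, 1.61 and 2.04 CPM in CD28-/- (2.69 ± 0.43, adjusted p = 1.8e-05). Gzmb, the protease granzyme B of cytotoxic granules, read 70.2, 107 and 92.5 CPM in rescue and 16.3, 18.7, 18.2 and 14.8 CPM in CD28-/- (2.40 ± 0.27, adjusted p = 3.6e-08). In all of them rescue 1 was the lowest of the rescue libraries and still above every CD28-/- library. These genes and Tbx21 were among those selected by a rule that requires such separation, so it is not added support. Eomes, a T-box factor related to T-bet, rose by 1.93, the chemokine receptor gene Cxcr3 by 1.31, Nkg7 of cytotoxic granules by 1.0 and the factor Runx3 by 0.91. Id2, a helix-loop-helix inhibitor, was the member that fell, by 0.43.

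Several of these genes are also expressed by CD8 and NK cells. Among the 14 tested markers of the CD8, NK and gamma-delta list, 1 passed the test, namely Xcl1, at 86, 95.6 and 106 CPM in rescue and 68.1, 60.6, 62.4 and 67.4 CPM in CD28-/- (log2 fold change 0.57 ± 0.17, adjusted p = 0.019). Xcl1 was no longer called without rescue 2 (adjusted p = 0.063) or rescue 3 (0.11). Klrc1, an NK receptor gene, read 0.694 to 0.972 CPM in rescue and 0.226 to 0.586 CPM in CD28-/-, without overlap but also without a call. The markers other than Xcl1 were therefore not shown to be equal between the groups. The summed level of this list, most of it Xcl1, stood 0.37, 0.46 and 0.65 above the CD28-/- mean on the log2 scale in rescue. Without rescue 1 the median log2 fold change of the list was 0.62. The part of such cells in the Th1 changes was not tested.

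Cytokine and chemokine genes rose and none of the 23 tested fell: 14 were called higher, with a list median of 1.05. Lif, an interleukin 6 family cytokine, read 39, 51.5 and 49.9 CPM in rescue and 8.58, 11.3, 9.6 and 9.51 CPM in CD28-/- (log2 fold change 2.26 ± 0.16, adjusted p = 6.4e-12). Ccl3, an inflammatory chemokine, read 20.8, 32.8 and 34.2 CPM in rescue and 6.03, 6, 5.99 and 5.62 CPM in CD28-/- (2.31 ± 0.29, adjusted p = 3.6e-07). Lta, which encodes lymphotoxin alpha, read 97.6, 104 and 118 CPM in rescue and 51.2, 51.3, 48.6 and 54 CPM in CD28-/- (1.06 ± 0.13, adjusted p = 1.8e-07). None of these groups overlapped.

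Il2, a T cell growth factor whose induction is known to depend on CD28, read 8.71, 20.5 and 14.2 CPM in rescue and 7.07, 6.43, 7.51 and 6.83 CPM in CD28-/-. Its log2 fold change was 1.05 ± 0.20 (adjusted p = 0.00027), a difference that was largest in rescue 2 and smallest in rescue 1. Ccl4 rose by 1.52, the inflammatory cytokine gene Tnf by 0.85 and Ccl5 by 0.93. The type 2 cytokine genes Il4 and Il13 were called higher, by 1.72 and 1.82, at levels of at most 2.43 and 4.36 CPM that were both reached in rescue 2. Without rescue 2, Il4 was not called (0.70, adjusted p = 0.47), and the cytokines called higher numbered 8.

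Among 24 interleukin receptor and STAT feedback genes, 13 rose and 4 fell (median 0.49). The rising receptors were subunits for several interleukins. Il2ra, the CD25 chain that gives the interleukin 2 receptor its high affinity, read 878, 920 and 941 CPM in rescue and 537, 557, 552 and 537 CPM in CD28-/- (log2 fold change 0.74 ± 0.10, adjusted p = 2.1e-06). Il12rb1, the partner of Il12rb2, read 132, 169 and 164 CPM in rescue and 67.6, 72.2, 71.7 and 71.8 CPM in CD28-/- (1.13 ± 0.15, adjusted p = 5.7e-07). Both were higher in each rescue library than in any CD28-/- library. Il2rb rose by 0.71, Il18rap by 1.55, Il4ra by 0.52 and the STAT5-induced feedback gene Cish by 1.05. Il7r, the receptor for the survival cytokine interleukin 7, fell by 0.85, and Il6st, Il6ra and Il18r1 fell by 0.65, 0.49 and 0.55. The count of fallen genes was 2 when rescue 2, rescue 3 or CD28-/- 1 was left out.

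**Figure D2:**
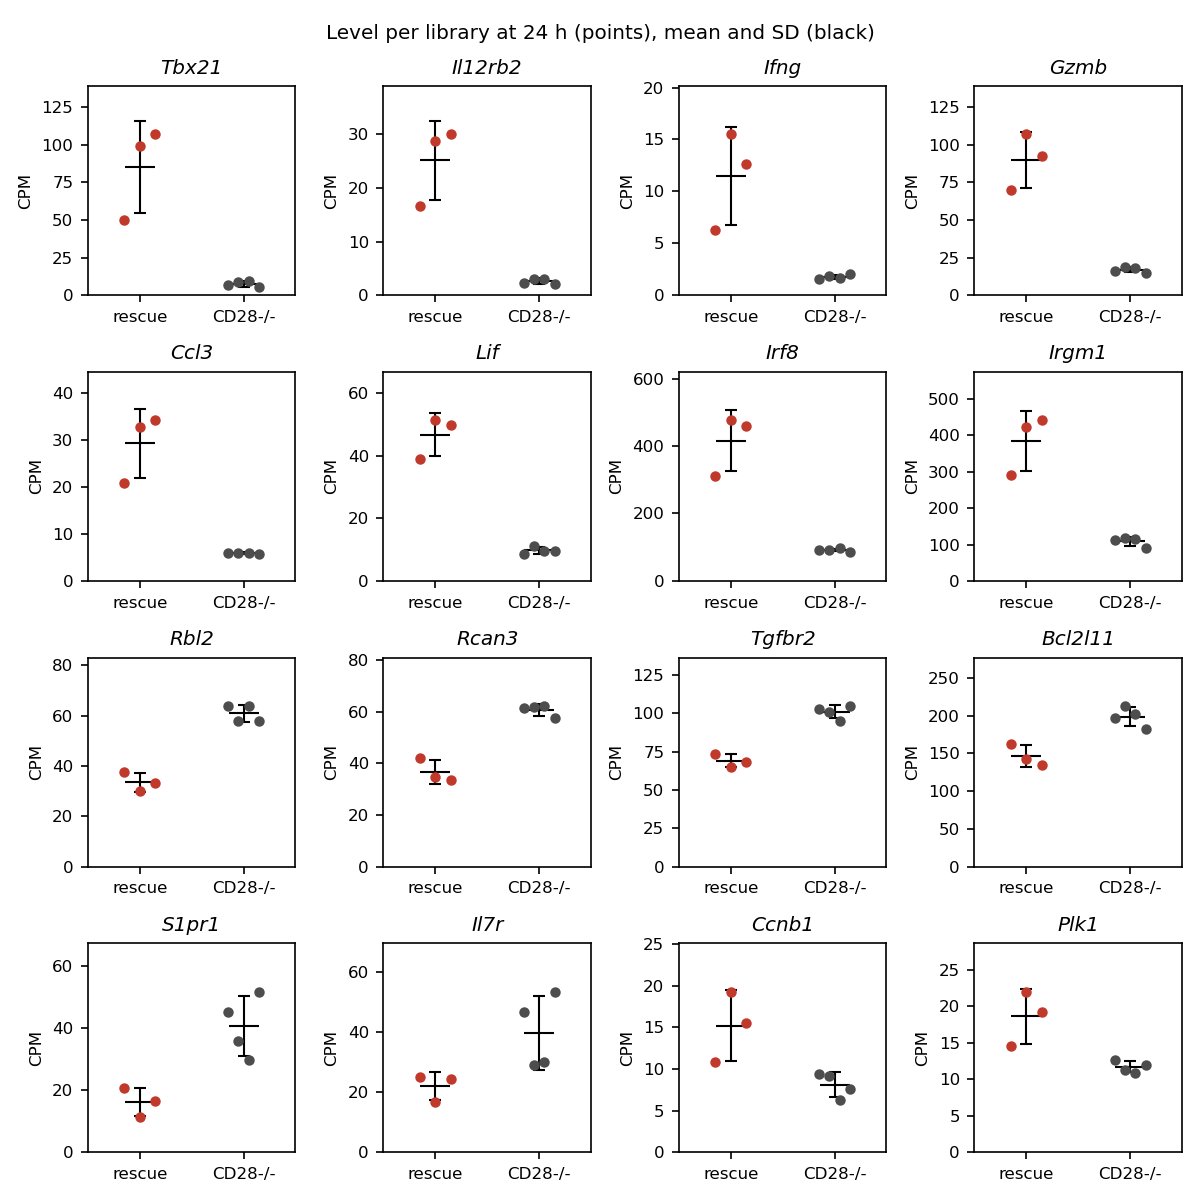
Each panel gives the level of 1 gene in CPM on the y axis, with points for the 3 rescue libraries (left) and the 4 CD28-/- libraries (right) at 24 h and black bars for the mean and SD. Tbx21 lies at 50.2 to 107 CPM in rescue and 5.13 to 9.2 CPM in CD28-/-, while Rbl2 lies at 29.9 to 37.5 CPM in rescue and 57.9 to 63.9 CPM in CD28-/-.

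Many interferon-stimulated genes rose. Of 34 tested, 19 rose, 15 did not pass the test and none fell, with a median log2 fold change of 0.96, and the list's summed level was 4280, 5470 and 5480 CPM in rescue and 2030, 2160, 2140 and 1800 CPM in CD28-/-. The sums of the groups were far apart. The risen members were mostly immunity-related GTPases and guanylate-binding proteins, which defend cells against intracellular microbes and are induced above all by interferon gamma. Irgm1 (chr11:48865245-48871420, GRCm38.p6) read 291, 424 and 442 CPM in rescue and 113, 118, 114 and 90.8 CPM in CD28-/-, with a log2 fold change of 1.82 ± 0.16 (adjusted p = 6.1e-10). Gbp2 read 1050, 1480 and 1460 CPM in rescue and 420, 512, 498 and 399 CPM in CD28-/- (1.54 ± 0.16, adjusted p = 1.8e-08).

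Iigp1, another of these GTPases, had the largest fold of the list, with 202, 414 and 385 CPM in rescue and 44.4, 41.6, 41.9 and 31.4 CPM in CD28-/- (log2 fold change 3.07 ± 0.26, adjusted p = 1.9e-10). Genes that type I interferon induces most, such as Isg15 (1.24), Oas1a (1.66) and Usp18 (1.49), also rose, at low levels: Isg15 had 3.51 to 4.51 CPM in rescue and 1.41 to 1.92 CPM in CD28-/-. Mx1 (0.76, adjusted p = 0.15) and the RNA sensor gene Ifih1 (0.49, adjusted p = 0.074) did not pass the test. Irf8, an interferon regulatory factor, read 311, 477 and 458 CPM in rescue and 91, 91.5, 96.2 and 86.7 CPM in CD28-/- (2.19 ± 0.22, adjusted p = 4.1e-09). Igtp and Irgm2 are near copies of each other, as are Tgtp1 and Tgtp2 and members of the Gbp cluster, so their reads may be split uncertainly.

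The 250 bases before the annotated start of 3 risen members are shown as examples of the region that was searched for motifs. A pair of motif patterns were searched on both strands, the gamma-activated sequence TTCNNNGAA (GAS) and the interferon-stimulated response element (ISRE), written GAAA, any 2 letters and GAAA, and capitals mark the matches. Irgm1 holds a pair of overlapping ISRE matches, Irgm2 a GAS and an ISRE match a pair of bases apart, and Gbp2 a single ISRE match on the opposite strand. The sequences are from RefSeq, GRCm38.p6, on the strand of the gene.
Irgm1 chr11:48871421-48871670, reverse strand: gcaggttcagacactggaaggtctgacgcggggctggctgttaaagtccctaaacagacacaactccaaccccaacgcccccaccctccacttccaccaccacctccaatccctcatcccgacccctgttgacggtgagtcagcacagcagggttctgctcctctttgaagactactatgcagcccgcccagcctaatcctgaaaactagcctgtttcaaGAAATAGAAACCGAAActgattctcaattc
Irgm2 chr11:58214727-58214976, forward strand: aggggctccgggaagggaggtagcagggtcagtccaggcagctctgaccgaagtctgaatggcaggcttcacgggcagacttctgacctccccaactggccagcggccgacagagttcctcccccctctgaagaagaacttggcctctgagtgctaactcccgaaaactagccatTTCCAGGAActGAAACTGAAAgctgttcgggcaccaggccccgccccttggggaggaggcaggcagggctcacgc
Gbp2 chr3:142620413-142620662, forward strand: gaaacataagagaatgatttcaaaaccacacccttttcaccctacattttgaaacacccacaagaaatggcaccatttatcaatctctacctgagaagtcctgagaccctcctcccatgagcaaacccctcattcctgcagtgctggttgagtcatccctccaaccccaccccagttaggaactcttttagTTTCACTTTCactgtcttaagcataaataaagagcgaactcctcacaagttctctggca

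Of the 34 listed genes, 25 had such a window, and 17 of those (68%) held at least 1 of the motifs. Over all 27025 genes with a window the share was 9.83%. All 12 risen members with a window held one. Among all tested genes with a window, a motif was present in 11.4% of the 1015 called higher, 5.41% of the 998 called lower and 8.57% of the whole. The interferon list was drawn up for genes known to respond to interferon, so a high share of these letters is part of what defines it. A match says nothing by itself about a factor being bound in these cells.

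Many genes of the cell cycle rose. Of 25 mitosis genes, 17 rose and none fell (median 0.72), of 30 DNA replication genes 12 rose and none fell (0.26), and of 26 genes of the G1 phase 9 rose and 2 fell (0.29). The mitosis genes summed to 1550, 2220 and 1780 CPM in rescue and 1310, 939, 1080 and 1030 CPM in CD28-/-, so rescue 1 and CD28-/- 1 came nearest to each other. Aurkb, a kinase of chromosome segregation, read 59.6, 80.2 and 71.5 CPM in rescue and 38.9, 36.5, 35.6 and 33.9 CPM in CD28-/- (log2 fold change 0.96 ± 0.16, adjusted p = 5.4e-05). Foxm1, the transcription factor of mitotic genes, read 48.4, 55.2 and 51.7 CPM in rescue and 36.1, 33.4, 29.3 and 27.2 CPM in CD28-/- (0.72 ± 0.12, adjusted p = 4.1e-05).

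The replication-related topoisomerase gene Top2a rose by 0.85, the cyclin-dependent kinase gene Cdk1 by 0.88 and the cyclin gene Ccnb1 by 0.91. Plk1, the polo-like kinase of mitotic entry, had 14.6, 22 and 19.2 CPM in rescue and 12.6, 11.3, 10.9 and 12 CPM in CD28-/-, which just missed the threshold (adjusted p = 0.055). Without rescue 2 the mitosis genes called higher numbered 7 and the replication genes 5, and without rescue 3 the replication genes numbered 6. Cdc25a, a phosphatase that starts the S phase, read 129, 146 and 147 CPM in rescue and 85.2, 96, 92.7 and 92.8 CPM in CD28-/- (0.62 ± 0.07, adjusted p = 1.4e-07). Skp2, which targets the inhibitor p27 for degradation, rose by 1.0 and Ccne1, cyclin E1, by 0.75. Cdkn1b, the gene of p27, and Rbl2 were the 2 members of the G1 list that fell, by 0.63 and 0.86.

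Growth and metabolism genes rose by less. Of 26 genes of amino acid transport and one-carbon metabolism 9 rose, of 27 sterol and fatty acid genes 6 rose and of 24 ribosome biogenesis genes 6 rose, with no falls and medians of 0.29, 0.14 and 0.18. Mthfd2, a mitochondrial one-carbon enzyme, read 151, 176 and 181 CPM in rescue and 110, 121, 113 and 113 CPM in CD28-/- (log2 fold change 0.57 ± 0.07, adjusted p = 3.8e-07). Scd2, a fatty acid desaturase, read 153, 197 and 157 CPM in rescue and 84.7, 92.2, 82.6 and 77.5 CPM in CD28-/- (1.0 ± 0.16, adjusted p = 1.7e-05). Neither gene overlapped between the groups. Of 26 genes of glycolysis, glucose uptake and hypoxia, 4 rose and 1 fell (median 0.06), beside 9.52% and 8.86% of all tested genes. The hexokinase gene Hk2 rose by 0.76, at 124, 140 and 131 CPM in rescue and 72.8, 83.1, 79.8 and 75.5 CPM in CD28-/-, and the lactate transporter gene Slc16a1 by 0.44, while Hif1a fell. The ribosome count was 1 without rescue 2, without rescue 3 or without CD28-/- 1, and it was 11 with RLE scaling and 12 with DESeq2. The sterol count was 3 without any of those libraries or CD28-/- 3, and the amino acid count was 5 without rescue 3.

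Genes that mark naive, quiescent T cells fell. Of 24 tested, 14 fell and none rose, with a median of -0.40. S1pr1, the sphingosine receptor that lets T cells leave lymph nodes, read 20.7, 11.5 and 16.5 CPM in rescue and 45.2, 36, 29.9 and 51.9 CPM in CD28-/- (log2 fold change -1.32 ± 0.19, adjusted p = 4.5e-06). Klf2, the factor that drives S1pr1 and other quiescence genes, read 21.5, 12 and 18.7 CPM in rescue and 42.6, 33.8, 30.3 and 45.2 CPM in CD28-/- (-1.13 ± 0.19, adjusted p = 3.5e-05). Lef1, a factor of naive T cell identity, read 163, 127 and 141 CPM in rescue and 190, 205, 203 and 205 CPM in CD28-/- (-0.48 ± 0.08, adjusted p = 4.2e-05). All 3 genes were lowest in rescue 2. Tcf7, the partner of Lef1, fell by 0.45 and the antiproliferative gene Tob1 by 0.66, whereas the homing receptor gene Ccr7 (-0.17, adjusted p = 0.49) did not pass the test.

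Genes of T cell receptor signalling fell more often than they rose: 12 of 25 fell and 2 rose (median -0.19). The members that fell include both activating parts and inhibitors of the pathway. Zap70, the kinase recruited to the receptor, read 350, 332 and 343 CPM in rescue and 453, 449, 438 and 501 CPM in CD28-/- (log2 fold change -0.43 ± 0.07, adjusted p = 1.3e-05). Dgka, a kinase that removes the second messenger diacylglycerol and so limits RAS, read 478, 345 and 407 CPM in rescue and 644, 621, 605 and 642 CPM in CD28-/- (-0.62 ± 0.08, adjusted p = 6.1e-07). Fyn fell by 0.35, Cd3e by 0.36 and the phosphatase gene Ubash3b by 0.46. The receptor chain gene Cd247 rose by 0.40 and the ubiquitin ligase gene Cblb by 0.38. Without rescue 1, rescue 2, CD28-/- 1 or CD28-/- 4, 1 of the genes was called higher.

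Of 27 brakes on PI3 kinase, AKT and RAS, 7 fell and 3 rose (median -0.03). Pik3ip1, an inhibitor of PI3 kinase, read 16.2, 10 and 11.9 CPM in rescue and 24.8, 21.5, 19.4 and 25.7 CPM in CD28-/- (log2 fold change -0.85 ± 0.14, adjusted p = 2.5e-05). Sesn1, a stress-induced inhibitor of mTORC1, fell by 0.51, and Spry2, a RAS pathway inhibitor, rose by 1.37, at 9.58, 14.1 and 8.43 CPM in rescue and 4.98, 3.88, 4.3 and 3.4 CPM in CD28-/-. Without rescue 2, 4 of these genes were called lower, and without rescue 1, rescue 2, CD28-/- 1 or CD28-/- 4, 1 was called higher. Of 23 genes of the BCL2 family and death receptors, 3 rose and 3 fell (median 0.01), beside 9.52% and 8.86% of all tested genes. Bcl2l1, the survival gene encoding BCL-xL, read 180, 217 and 201 CPM in rescue and 116, 136, 131 and 131 CPM in CD28-/- (0.64 ± 0.08, adjusted p = 6.1e-07), opposite in direction to Bcl2 (-0.28) and the pro-apoptotic genes Bcl2l11 and Bbc3 (-0.43). The count of falls was 1 without rescue 2, without CD28-/- 1 or without CD28-/- 3.

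Of 17 calcineurin and NFAT genes, 2 fell, Rcan3 and the factor gene Nfatc1, and none rose. Over all tested genes 8.86% fell and 9.52% rose, so such small counts do not set this list apart. Nfatc1 read 338, 319 and 341 CPM in rescue and 379, 403, 399 and 380 CPM in CD28-/-, with a log2 fold change of -0.23 ± 0.08 (adjusted p = 0.04) that was no longer called when any 1 of the 7 libraries was left out. Of 20 NF-kB pathway genes, 5 fell and none rose (median -0.01). The inhibitor gene Nfkbia read 123, 116 and 119 CPM in rescue and 144, 147, 137 and 141 CPM in CD28-/- (log2 fold change -0.25, adjusted p = 0.0083). Nfkbia was not called without rescue 2 (adjusted p = 0.059). The NF-kB count was 2 without rescue 2 and 3 without rescue 3 or CD28-/- 2. Of 20 genes of TGF-beta receptors and SMADs, 4 fell and 1 rose (median -0.01), and 2 fell without rescue 2. Smad3, a transducer of TGF-beta signals, was the member that rose, at 38.2, 45.3 and 37.7 CPM in rescue and 25.5, 26.9, 24.9 and 24.9 CPM in CD28-/- (0.66 ± 0.10, adjusted p = 7.1e-06).

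Among 23 activation transcription factors of the EGR, NR4A, AP-1 and IRF families, 7 rose and 2 fell (median 0.14), and 4 rose without rescue 2. Batf3, an AP-1 family factor, had 1.16, 2 and 1.35 CPM in rescue and 0.0418, 0.0863, 0 and 0.0377 CPM in CD28-/-, a fitted log2 fold change of 5.04 ± 0.67 (adjusted p = 1.1e-06) that rests on few reads. Jun rose by 0.66 and Myc, the growth regulator, by 0.33, while Fos and Fosb fell by 0.67 and 0.85. Fosb lost its call without rescue 2 (adjusted p = 0.1), rescue 3 (0.14), CD28-/- 1 (0.088) or CD28-/- 2 (0.06). The early genes Nr4a1 (-0.05, adjusted p = 0.8) and Egr2 (0.07, adjusted p = 0.82), which report antigen receptor signals, and Irf4 (0.19, adjusted p = 0.49) did not pass the test.

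Of 30 genes of adhesion, chemokine receptors and memory, 13 rose and none fell (median 0.40). Cd44, the hyaluronan receptor of activated and memory T cells, read 99, 173 and 116 CPM in rescue and 54.3, 50.1, 45.6 and 42.1 CPM in CD28-/- (log2 fold change 1.43 ± 0.13, adjusted p = 7.6e-10). Ly6a, the activation marker Sca-1, which interferons also induce, read 123, 179 and 236 CPM in rescue and 29.5, 33.1, 32.2 and 28.8 CPM in CD28-/- (2.54 ± 0.25, adjusted p = 5.7e-09). Each rescue library exceeded each CD28-/- library in both, which for Ly6a was part of a rule that selected it. Of 25 costimulatory and inhibitory receptor genes, 6 rose and 1 fell (median 0.05). The rising ones included Havcr2 (2.02), the inhibitory receptor TIM-3, and the receptor genes Tigit (0.68) and Cd226 (0.68). Tigit stood at 0.42 and was not called without rescue 2. The CD28 family members Icos (0.05, adjusted p = 0.85) and Ctla4 (-0.21, adjusted p = 0.4) did not pass the test. Without rescue 1, 3 costimulatory and inhibitory receptor genes and 2 adhesion genes were called lower. The lower count of the receptor genes was 2 without CD28-/- 3 and 0 without rescue 2, and 1 adhesion gene was called lower without CD28-/- 3.

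Among genes of the other helper lineages, 1 of 16 rose and 3 fell, beside 9.52% and 8.86% of all tested genes. Bcl6, the factor of follicular helper cells, read 14.1, 12.9 and 12.9 CPM in rescue and 22.6, 17, 16.9 and 18.8 CPM in CD28-/- (log2 fold change -0.50 ± 0.11, adjusted p = 0.0018). Of 13 regulatory T cell genes, 3 rose and 3 fell (median 0.02). Foxp3, which defines the lineage, read 5.28, 2.54 and 3.4 CPM in rescue and 7.2, 6.6, 5.46 and 4.6 CPM in CD28-/- (-0.67 ± 0.22, adjusted p = 0.033), with overlap between the groups. Lrrc32, the anchor of latent TGF-beta, rose by 1.54 and the neuropilin gene Nrp1 by 1.10. Without rescue 2 or CD28-/- 1, 1 regulatory T cell gene was called lower.

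**Figure D3:**
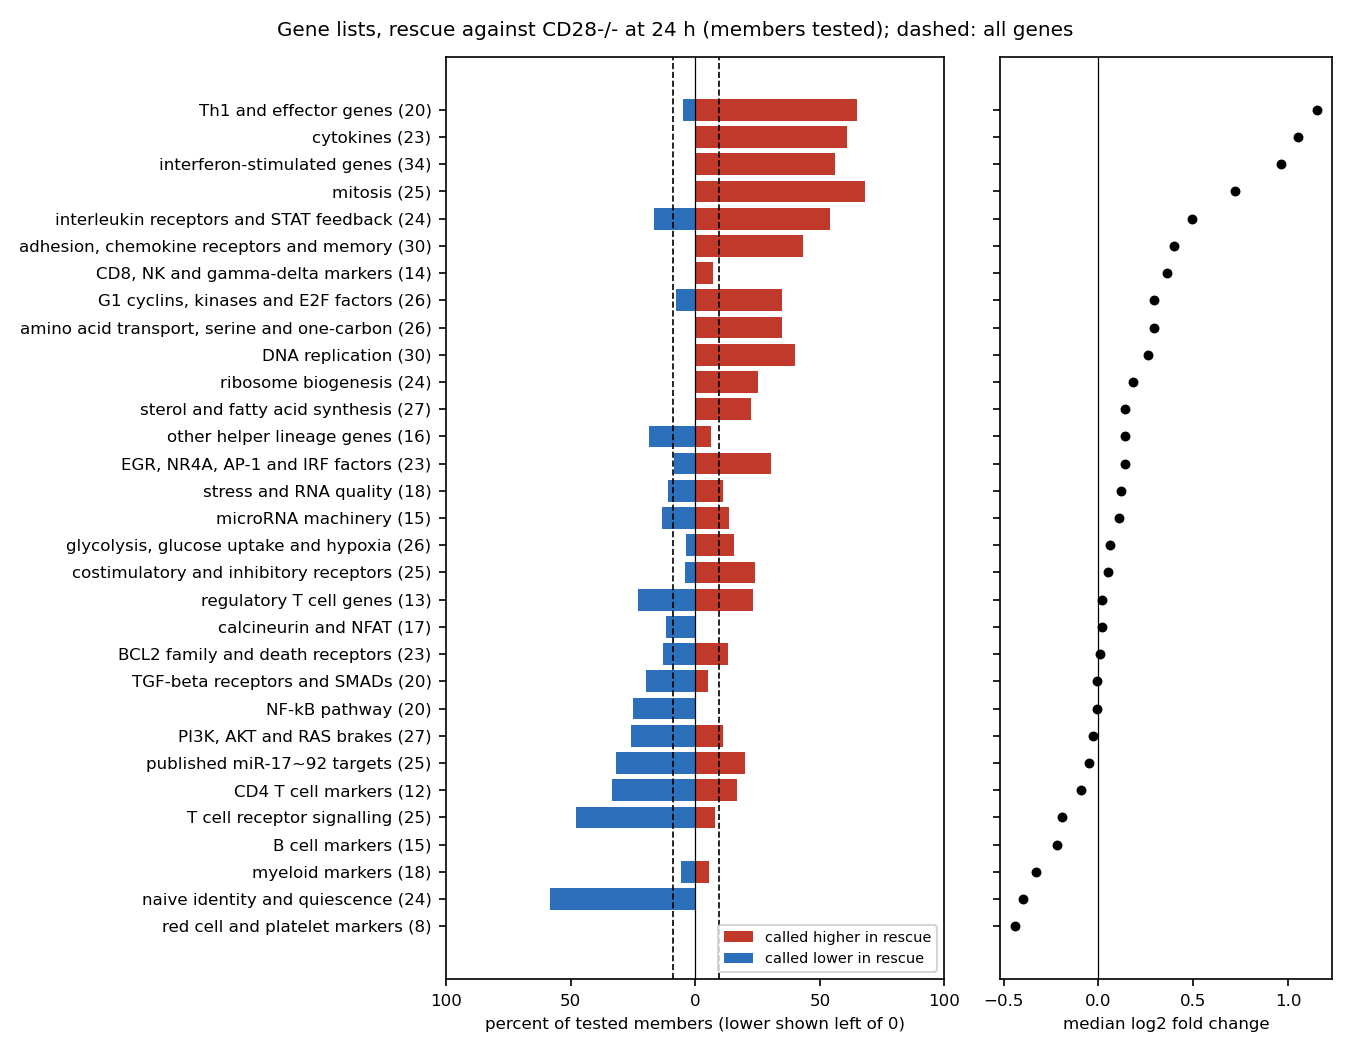
Left, the share of tested members of each gene list called higher in rescue (red, right of 0) or lower in rescue (blue, left of 0), in percent, with dashed lines at the shares over all genes, 9.52% and 8.86%. Right, the median log2 fold change of each list, with 1.15 in Th1 and effector genes and -0.40 in naive identity and quiescence genes; the lowest, -0.44, is that of 8 red cell and platelet markers with no call.

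**Figure D4:**
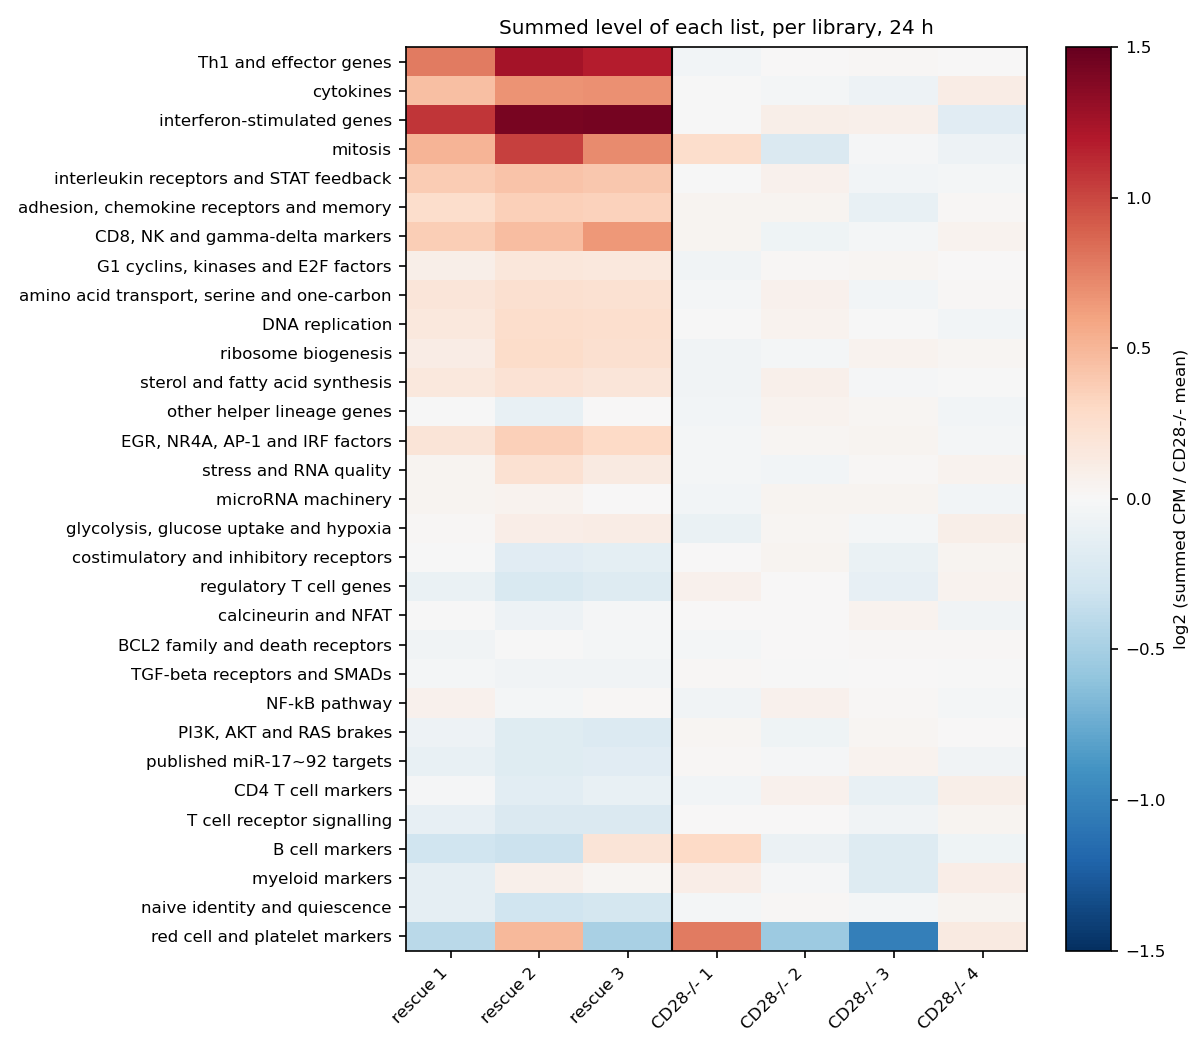
Each cell gives the log2 of a list's summed CPM in 1 library over the mean of the 4 CD28-/- libraries, for 3 rescue libraries (left) and 4 CD28-/- libraries (right). In the interferon-stimulated genes the rescue libraries stand at 1.07, 1.43 and 1.43, and in the Th1 and effector genes at 0.78, 1.24 and 1.17, with rescue 1 lowest in both.

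Outside the lists, the genes with the largest changes by rule were of varied kinds. Tbkbp1, which encodes an adaptor of the kinase TBK1 and neighbours Tbx21 on chromosome 11, read 20.9, 37.6 and 37 CPM in rescue and 3.1, 4.1, 3.7 and 2.64 CPM in CD28-/- (log2 fold change 3.23 ± 0.23, adjusted p = 6.4e-12). Dclk1, a doublecortin-like kinase, rose by 3.11 on the log2 scale, Tmem35a by 3.25 and the serpin gene Serpina3f by 2.79. Akr1c18, an enzyme that inactivates progesterone, fell most among them, with 10.4, 19.5 and 9.58 CPM in rescue and 82.1, 64.7, 61.3 and 80.4 CPM in CD28-/- (-2.46 ± 0.25, adjusted p = 9.6e-09). Tbc1d4, a regulator of glucose transporter traffic, read 29.2, 29.4 and 28.2 CPM in rescue and 75.1, 55.9, 71.1 and 67.9 CPM in CD28-/- (-1.22 ± 0.11, adjusted p = 6.1e-10). Cd55, a complement inhibitor, fell by 1.60 and Neurl3 by 1.54.

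Set beside wild-type cells at 24 h, rescue cells lay near, above or below the wild-type level depending on the group of genes. These comparisons share libraries with the one above, so only their own values are given. Xist passed the limit of the sex check in every rescue and CD28-/- library, but in 3 of 4 wild-type and 1 of 4 T1792tg libraries. Sex and genotype are thus partly mixed here, and no term for sex was fitted in these comparisons. In rescue against wild type 4794 genes were called (35.1% of those tested, made up of 17.4% higher and 17.7% lower), in CD28-/- against wild type 7029 (51.5%, made up of 23.7% higher and 27.8% lower) and in rescue against T1792tg 4426 (32.4%). Tbx21 averaged 85.3 ± 30.6 CPM in rescue (SD, n = 3), 7.46 ± 1.85 CPM in CD28-/- (n = 4) and 117 ± 18.3 CPM in wild type (n = 4), and rescue did not differ from wild type by the test (log2 fold change -0.45 ± 0.24, adjusted p = 0.14). This does not show equal levels. Irgm1 averaged 386 ± 82.7 CPM in rescue, 109 ± 12.4 CPM in CD28-/- and 302 ± 38.2 CPM in wild type (rescue against wild type 0.35 ± 0.16, adjusted p = 0.092). Gbp2 exceeded wild type, at 1330 ± 246 CPM in rescue, 457 ± 55.7 CPM in CD28-/- and 662 ± 114 CPM in wild type (1.01 ± 0.16, adjusted p = 1.1e-05).

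The interferon-stimulated list showed 25 genes higher and 1 lower in rescue than in wild type, and 8 higher and 12 lower in CD28-/- than in wild type. Its summed level averaged 5070 CPM in rescue, 2030 CPM in CD28-/-, 4370 CPM in T1792tg and 3310 CPM in wild type. Il2 stayed far below wild type in both genotypes, at 14.5 ± 5.88 CPM in rescue, 6.96 ± 0.454 CPM in CD28-/- and 155 ± 23.7 CPM in wild type. Its log2 fold change was -3.43 ± 0.20 in rescue against wild type (adjusted p = 7.5e-15) and -4.48 ± 0.20 in CD28-/- against wild type (adjusted p = 8.6e-19). Lif averaged 46.8 ± 6.81 CPM in rescue, 9.76 ± 1.15 CPM in CD28-/- and 75.9 ± 10.8 CPM in wild type, and was lower in rescue than in wild type (-0.70 ± 0.16, adjusted p = 0.00069).

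The mitosis list of rescue lay between those of the other genotypes in its summed level. Of the 25 mitosis genes, 15 were lower, 10 were not called and none was higher in rescue than in wild type, and all 25 were lower in CD28-/- than in wild type. The list summed to a mean of 1850 CPM in rescue, 1090 CPM in CD28-/- and 2710 CPM in wild type. Aurkb averaged 70.4 ± 10.3 CPM in rescue, 36.2 ± 2.08 CPM in CD28-/- and 108 ± 17.2 CPM in wild type (rescue against wild type -0.61 ± 0.16, adjusted p = 0.0038). Of the 24 naive identity genes, 11 were higher and 4 lower in rescue than in wild type, and 18 were higher and 3 lower in CD28-/- than in wild type. S1pr1 averaged 16.3 ± 4.62 CPM in rescue, 40.8 ± 9.74 CPM in CD28-/- and 5.05 ± 1.37 CPM in wild type (rescue against wild type 1.69 ± 0.20, adjusted p = 6.9e-08).

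The same Cre and transgene in cells with CD28 (T1792tg against wild type at 24 h) form a comparison with no library in common. There 1713 genes were called (12.5%), 833 higher (6.1%) and 880 lower (6.45%), and 962 in all without T1792tg 4. Sex was uneven between these groups, and 1374 genes were called with a term for it. The overlaps given next are from the fit without that term. Called higher in both were 403 genes, which is 31% of the 1300 in rescue and 48.4% of the 833 in T1792tg. Called lower in both were 426 genes, 35.2% of the 1210 in rescue and 48.4% of the 880 in T1792tg. Opposite calls were few: 11 of the genes higher in rescue (0.846%) were lower in T1792tg, and 9 of those lower in rescue (0.744%) were higher. Lta, Cd44, Eomes and Akr1c18 moved alike, with log2 fold changes in T1792tg against wild type of 0.97, 1.36, 1.72 and -2.79.

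The difference between the effects without and with CD28, tested as an interaction, was called for 288 genes (2.11%), 181 larger in rescue against CD28-/- (1.33%) and 107 smaller (0.784%). Tbx21 was among the larger ones, with a log2 fold change of 3.52 without CD28 and 0.56 ± 0.22 with it (adjusted p = 0.088), and a difference of 2.96 ± 0.34 (adjusted p = 7.4e-07). Ifitm3, an antiviral membrane protein, rose without CD28, at 6.4, 8.17 and 7.25 CPM in rescue and 2.05, 2.89, 2.13 and 1.96 CPM in CD28-/-, and averaged 13.5 CPM in T1792tg and 17.3 CPM in wild type (difference 2.05 ± 0.23, adjusted p = 7.4e-07). For Il2 the difference was not called, with 1.05 ± 0.20 without CD28 and 0.47 ± 0.16 with it (difference 0.58 ± 0.26, adjusted p = 0.29). Without rescue 2 the interaction was called for 119 genes, and without rescue 1 for 447.

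By list, the difference was called larger without CD28 for 11 of 25 mitosis genes, 9 of 34 interferon-stimulated genes and 7 of 26 G1 genes, and smaller for none of them. Mitosis genes rose in 17 cases without CD28 and in none with CD28, where the median was -0.19. Aurkb had a log2 fold change of 0.96 without CD28 and -0.29 with CD28, a difference of 1.25 ± 0.22 (adjusted p = 0.0013). In the other direction stood Fosb, an early AP-1 gene, which fell by 0.85 without CD28 and rose by 2.01 with it (difference -2.86 ± 0.42, adjusted p = 0.0001). Il7r fell by 0.85 without CD28 and rose by 0.86 with it (difference -1.71 ± 0.28, adjusted p = 0.00039). The adhesion receptor gene Adgre5 (CD97) and Ppp1r15a, a stress phosphatase subunit, had differences of -0.98 and -0.79. The T1792tg and wild-type cultures came from mice of both sexes in uneven numbers. Xist passed the limit of the sex check in 1 of 4 T1792tg and 3 of 4 wild-type libraries, and Ddx3y in 3 and 1. Sex and transgene are thus partly mixed there, and with a term for sex the interaction was called for 209 genes.

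**Figure D5:**
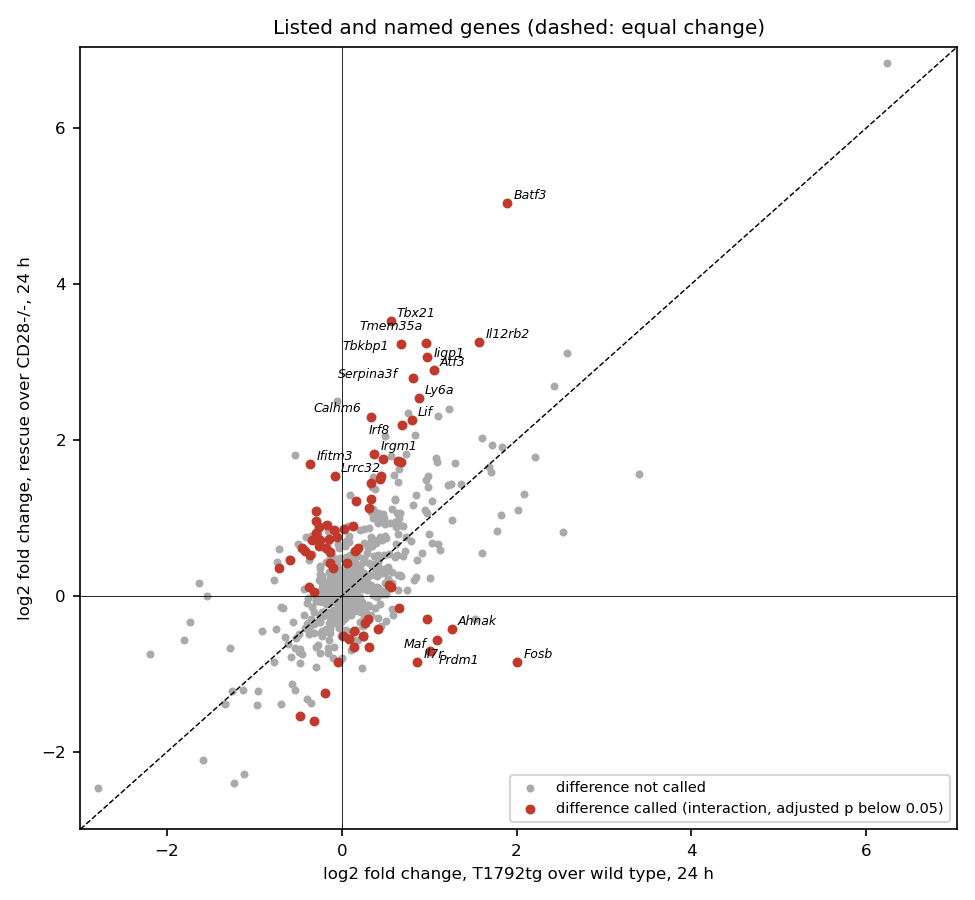
Each point is a listed or named gene, with its log2 fold change in T1792tg over wild type at 24 h (with CD28) on the x axis and in rescue over CD28-/- at 24 h (without CD28) on the y axis; red points have a called difference between them. Tbx21 lies far above the line of equal change (3.52 without CD28, 0.56 with it), and Fosb far below it (-0.85 without CD28, 2.01 with it).

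Before stimulation the same pair of genotypes differed in 2288 genes (16.8%), 1070 higher in naive rescue (7.84%) and 1218 lower (8.92%). Of the genes higher at 24 h, 242 were also higher in naive cells, which is 18.6% of the 1300 at 24 h and 22.6% of the 1070 in naive cells, and 67 were lower. Of the genes lower at 24 h, 288 were also lower in naive cells, 23.8% of the 1210 at 24 h and 23.6% of the 1218 in naive cells, and 71 were higher. Rbl2, Rcan3 and Tgfbr2 were lower in naive rescue as well, with log2 fold changes of -0.36, -0.57 and -0.31. Bcl2l11 was not (0.15 ± 0.10, adjusted p = 0.37).

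The effect at 24 h differed from the naive effect in 1747 genes (12.8%), 950 in the positive direction (6.96%) and 797 in the negative direction (5.84%), and in 1000 genes without rescue 2. The interferon-stimulated list held 16 of the positive ones and none of the negative. Irgm1 had a log2 fold change of 1.82 at 24 h and -0.17 ± 0.17 in naive cells (adjusted p = 0.53), a difference of 1.99 ± 0.24 (adjusted p = 2.8e-06). Cd44 had 1.43 at 24 h and -0.05 in naive cells (difference 1.48 ± 0.19, adjusted p = 6e-06). Ribosome biogenesis genes included 12 that were lower and none higher in naive rescue, and 15 of 24 with a more positive effect at 24 h. Ephx1, an epoxide hydrolase, went the other way, with -1.20 at 24 h and 0.22 in naive cells (difference -1.42 ± 0.15, adjusted p = 8.7e-07), as did Mxd4, an antagonist of MYC, with -0.80 at 24 h and 0.78 in naive cells (difference -1.58 ± 0.19, adjusted p = 3e-06).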

How the data were processed

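The deposited table holds raw read counts per gene, whole numbers without normalization, for 38 libraries of mouse CD4 T cells and 24028 Entrez Gene numbers; its gene length column was not used. Per the labels' protocols, RNA was taken up in Trizol reagent and purified on columns, and stranded TruSeq libraries were read as single ends on a NextSeq. The build mm10 and the tools STAR 2.5.2a, FastQC 0.11.5, edgeR 3.24.3 and R 3.5 are named per the submitters' processing notes. Which tool counted reads, and on which annotation, is not given in the sources used here.

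Symbols and coordinates came from RefSeq GRCm38.p6, which matched 23968 identifiers; the other 60 held 0.0749% of counts and stayed in the table under their numbers. edgeR 4.0.16 (R 4.3.3) kept 13650 genes by filterByExpr, scaled library sizes by TMM and fitted a quasi-likelihood model to all 38 libraries with a coefficient per group of genotype and state. Contrasts were tested with the quasi-likelihood F test (two-sided), and p was adjusted over all tested genes by Benjamini-Hochberg, with calls below 0.05. The SE is the log2 fold change divided by the square root of F. Replicates are libraries of single mice. The script was checked on simulated counts with known changes in rescue. It called 63% of 100 genes changed 1.5-fold, 75% of 100 genes changed 2-fold and 3 unchanged genes. Many true changes of this size can therefore be missed.

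The members of the comparison and the 31 gene lists were chosen with earlier results of these data known. Genes were named by rule: the engineered loci, 12 increases and 12 decreases with the largest folds, called, free of overlap and at a group mean of 5 CPM or more, the 4 smallest p of each list, and the 5 smallest p in each direction of both interactions. Other named genes, such as Il2, Tnf, Il2ra, Gbp2, Plk1, Foxp3, Zbtb4, Havcr2 and Icos, were chosen with their values known. Some members of the lists and some genes that the rule selects are not reported here. Lists were counted, not tested as sets, and some share members, so their counts are not independent.

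Seed matches were searched in the longest 3′ UTR of at least 30 bases per gene (GENCODE M21, GRCm38), and motifs in the first RefSeq promoter window per gene. Alternatives were RLE scaling, DESeq2 1.42.0, no filter on low counts, a mean of at least 5 CPM, only the compared groups, a replicate block, a term for sex, a threshold of 0.01, an 8-letter seed match, classes of UTR length, and leaving out each library.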

Additional observations from a re-analysis of the deposited data

Results flagged for a closer look

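In 14 of 153 named genes (9.15%), 1 of the 4 CD28-/- libraries at 24 h stood apart from the others, where chance gives about 1 in 20. The named genes were chosen largely by their values and share libraries, so these shares are not a test of an excess. The library apart was not the same for every gene. Given after each gene is the gap between that library and its neighbour over the whole range, from levels rounded to 3 significant digits, where it exceeded Dixon's 95% critical value for 4 libraries. One library was low for Klc3 (0.833), Rcan3 (0.837), Ccl3 (0.902), Il12rb1 (0.891), Maf (0.868), Lef1 (0.867), Tgif1 (0.903), Rrs1 (0.833), Adgre5 (0.845), Tgtp2 (0.854) and Tgtp1 (0.881). One library was high for Lrrc32 (0.853), Ikzf2 (0.835) and Klra4 (1), the last of which had reads in a single CD28-/- library. The library apart for Maf was CD28-/- 2, at 4.53 CPM, and rescue stood at 3.76 to 5.34 CPM.

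The effect of the rescue genotype without CD28 differed by test from that of T1792tg with CD28 in these genes, given as the difference in log2 fold change. It was larger without CD28 for Tbx21 (2.96), its neighbour Tbkbp1 (2.56), Ifitm3 (2.05) and Calhm6 (1.95), an ion channel family gene. It was smaller for Fosb (-2.86), Il7r (-1.71), the scaffold gene Ahnak (-1.68), Adgre5 (-0.98) and Ppp1r15a (-0.79). Ahnak rose in T1792tg cells (1.26) and was not called in rescue (-0.42, adjusted p = 0.12).

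The effect at 24 h differed by test from that in naive cells for Tgtp2 (2.03), Irgm1 (1.99), Tgtp1 (1.98), Cd44 (1.48) and the collagen receptor gene Ddr1 (1.36). It differed the other way for Mxd4 (-1.58), Ephx1 (-1.42), Ccdc28b (-1.31), Zer1 (-0.84) and Map7d1 (-0.83). For Ddr1 and Ccdc28b the difference rests on naive cells, where the log2 fold changes were -1.16 and 1.27, beside 0.20 and -0.05 at 24 h.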

How the results depend on the processing

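At a threshold of 0.01, 1412 genes were called in rescue against CD28-/- at 24 h, 1163 in the naive pair, 776 in T1792tg against wild type, 3150 in rescue against wild type, 100 in the interaction with CD28 and 747 in that of 24 h with naive. With only the compared groups in the fit these were 3851, 802, 2631 and 929 for the main pair, the naive pair, T1792tg and the interaction with CD28, and DESeq2 called 518 in that interaction. The seed shift was -0.058 and -0.056 in the short and middle UTR classes, against -0.039. RLE scaling called 1484 higher and 1136 lower (56.6% higher, against 51.8%), and moved the median of all genes to 0.026.

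Leaving out 1 library gave 1300 to 2561 calls in the main pair, 1600 to 3034 in the naive pair, 962 to 1710 in T1792tg, 119 to 447 in the interaction with CD28 and 1000 to 2152 in that of 24 h with naive. Signs turned, in genes that were not called, for Mir17hg (-0.03 to 0.17), Gt(ROSA)26Sor (-2.22 to 0.83), Cd22 (-0.01 to 0.75), Pf4 (-1.13 to 0.05) and Ccdc28b (-0.15 to 0.04). Over 154 named genes, 1017 of these values kept direction and side of the threshold, and 54 lost the call.

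Whether replicate numbers pair the samples could not be decided from 3 same-numbered pairs. Their deviations from the group means had correlations of 0.09, -0.13 and -0.09, and those of differently numbered libraries ran from -0.14 to 0.17. With the replicate block the counts were 2423 in the main pair, 2206, 1643, 7032, 4712 and 4316 in the naive pair, T1792tg, CD28-/-, rescue against wild type and rescue against T1792tg, and 241 and 1714 in the interactions with CD28 and with naive.

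Genes below about 1 CPM, among them the hairpin entries at 24 h, rest on few reads, and the number of libraries limits every call. Cre, mouse line and transgene cannot be told apart.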

Other observations

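Of 15 genes of the microRNA machinery, 2 rose and 2 fell in rescue against CD28-/- at 24 h. Over all tested genes 9.52% rose and 8.86% fell, so such small counts do not set the list apart. Dgcr8, the RNA-binding partner of Drosha in the nucleus, read 140, 153 and 146 CPM in rescue and 123, 124, 119 and 121 CPM in CD28-/- (log2 fold change 0.27 ± 0.07, adjusted p = 0.0035). Xpo5, which exports the precursors, rose by 0.34. Its call was lost without rescue 2, rescue 3 or CD28-/- 4 (adjusted p = 0.098, 0.058 and 0.055). Ago1, one of the Argonaute proteins that carry mature microRNAs, read 122, 106 and 109 CPM in rescue and 151, 162, 168 and 146 CPM in CD28-/- (-0.48 ± 0.09, adjusted p = 0.00011), and Prkra, a cofactor of Dicer, fell by 0.68. Neither Drosha (0.11, adjusted p = 0.35) nor Dicer1 (0.18, adjusted p = 0.18) passed the test.

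Of 18 genes of stress and RNA quality, 2 rose and 2 fell, beside 9.52% and 8.86% of all tested genes. Atf3, a transcription factor of the stress response, read 15.9, 40 and 29 CPM in rescue and 3.68, 4.4, 3.82 and 3.25 CPM in CD28-/- (log2 fold change 2.90 ± 0.40, adjusted p = 1.7e-06). Gadd45g, a growth arrest gene that also promotes interferon gamma production in T cells, read 10.2, 17.2 and 15.8 CPM in rescue and 6.53, 5.35, 5.62 and 5.96 CPM in CD28-/- (1.29 ± 0.19, adjusted p = 6e-06). Both were higher in every rescue library than in any CD28-/- library, which for Atf3 was part of a rule that selected it. Ppp1r15a and the p53 target Trp53inp1 fell by 0.66 and 0.91, at 99 to 138 CPM of Trp53inp1 in rescue and 190 to 234 CPM in CD28-/-.

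Within 10 Mb of the engineered loci, 22 of 103 tested genes were called near Gt(ROSA)26Sor (21.4%), 15 of 96 near Cd28 (15.6%) and 7 of 32 near Mir17hg (21.9%), beside 18.4% of all genes.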
